A study of Mus musculus with 8 samples.

Results

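Transcripts of p53 and of genes that p53 is known to switch on were examined in whole testes at 16 dpp (days post partum) from Tex19.1-/- mice and their Tex19.1+/- controls. The set was defined by name and holds 10 genes, namely Trp53, Bax, Bbc3, Pmaip1, Mdm2, Ccng1, Fas, Perp, Trp53inp1 and Zmat3, and its members are all probes that the platform annotation assigns to one of these symbols. This rule found 20 of the 45281 probes on the array, an Illumina Beadchip (Mouse WG-6 v2.0), which represent 8 of the 10 genes, out of 19057 genes named on it. No probe is assigned to Trp53 or Bax in the annotation used here, so the levels of these 2 genes were not analysed. The other members lie on mouse chromosomes 3 (Zmat3), 4 (Trp53inp1), 7 (Bbc3), 10 (Mdm2 and Perp), 11 (Ccng1), 18 (Pmaip1) and 19 (Fas). RNA from the testes of 4 Tex19.1-/- animals and 4 Tex19.1+/- animals, numbered 1 to 4 in each genotype, was hybridized to 1 array for each animal. All animals were males on a C57BL/6 background, to which the mutation had been backcrossed 3 times, and the controls were littermates that carry 1 mutant copy of Tex19.1 themselves. The study's methods also mention wild-type littermates as controls, whereas the labels give all 4 controls as heterozygous.

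p53 is a transcription factor that is stabilised after DNA damage and other stresses. It then activates genes that halt the cell cycle, repair DNA or trigger apoptosis, and one of its targets, Mdm2, encodes the ubiquitin ligase that marks p53 itself for degradation. Bbc3 and Pmaip1 encode the BH3-only proteins PUMA and NOXA, which act through Bax and its relatives to make the mitochondrial outer membrane permeable, and Fas encodes a death receptor of the cell surface. In mouse testes germ cells are removed by apoptosis during the first wave of spermatogenesis, for which Bax is needed, and spermatocytes that fail in meiotic prophase are removed in the same way. A testis at 16 dpp holds spermatogonia, spermatocytes up to pachytene and somatic cells, so the signals average over all these cells, and fewer cells of a type cannot be told apart from less RNA in each cell.

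Because the genes are grouped by a shared regulator, the promoter sequences of the members were searched for the p53 half-site consensus, a motif of 10 bases that reads the same on both strands and is counted without mismatches. In windows of 300 bases from RefSeq (GRCm38.p6), which run from 250 bases before to 50 bases after a gene's start, the motif was present in 4 of the 6 members that have a window (Trp53, Bax, Mdm2 and Ccng1) and absent from the windows of Bbc3 and Fas. Of all 27025 genes with a window 9.55% hold a match, and of 30 other p53 target genes 8 do. By window, 4 of the 8 member windows and 8.36% of all 32851 hold one. The matches are shown with the half-site in capitals and 10 bases on each side, on the strand of the gene, at chr11:69580274-69580303 for Trp53, chr7:45467080-45467109 for Bax, chr10:117710925-117710954 for Mdm2 and chr11:40755452-40755481 for Ccng1.
Trp53: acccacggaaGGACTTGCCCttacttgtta
Bax: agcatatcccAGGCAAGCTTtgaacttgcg
Mdm2: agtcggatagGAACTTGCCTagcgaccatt
Ccng1: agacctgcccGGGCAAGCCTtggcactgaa
A match describes these letters only, and binding of p53 was not measured here.

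The genotype of the animals was checked with the probe of Tex19.1, which was at least 4.33-fold lower in Tex19.1-/- testes (limma, adjusted p = 6.3e-07), with detection in 0 of 4 Tex19.1-/- animals and in 4 of 4 controls. The bound sets the control mean against the lowest detected signals. Mean background-subtracted signals ranged from 79.0 to 126 across Tex19.1-/- arrays and from 90.8 to 159 across control arrays, and 13720 to 14668 probes were detected on Tex19.1-/- arrays against 14152 to 15876 on control arrays. Arrays were therefore quantile-normalized on the log2 scale, and every level below is a normalized log2 signal, which can be compared between animals for 1 probe but not between probes. A detection p-value under 0.01 on 1 array or more was required of an expressed probe, and the 19089 probes of this kind were compared between the genotypes with limma. Of the listed markers of testis cells, those of mid to late pachytene spermatocytes changed most with genotype. The marker lists were chosen with earlier results of these data known, so their counts are no test. Of 12 expressed genes of mid to late pachytene spermatocytes 7 fell (adjusted p at most 0.01) and 0 rose, and the summed linear signal of this list was 6206 to 10288 in Tex19.1-/- testes and 17520 to 26874 in controls. Of 8 expressed early meiotic prophase genes 1 fell, with a median log2 change of -0.31 and a summed signal of 3834 to 4868 in Tex19.1-/- testes and 5158 to 6015 in controls. Of the spermatogonial (10), Sertoli (9), Leydig (5) and macrophage (5) genes 0 were called, with median log2 changes of 0.16, 0.17, 0.23 and 0.054. Of all 10904 expressed genes 1.98% were called lower and 0.11% higher. At so small a share, 0 calls in lists of this size do not set their genes apart from others. The markers that were not detected in any array included Sycp1, Sycp3, Dmc1 and Stra8 for early prophase, Gfra1 and Dmrt1 for spermatogonia, Gata4 for Sertoli cells, Hsd3b1 for Leydig cells and Adgre1 for macrophages. Lack of detection at these probes does not show that the transcripts are absent.

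No member of the set passed the test. Of the 20 probes, 11 were expressed, representing 7 genes, and 0 of these 11 passed the threshold, an adjusted p of 0.01. Of all expressed probes 338 (1.77%) were called, 311 of them (1.63% of all) lower. At so small a share, 0 calls among 11 probes does not set the members apart from other probes. With the replicate number as a block 518 of all expressed probes and still 0 of the members were called. The smallest adjusted p was 0.077, at a probe of Ccng1, and outside Ccng1 it was 0.66. At an unadjusted p under 0.05, 2 member probes were higher and 0 were lower, against 5.87% and 7.93% of all expressed probes (13.8% in either direction). Both of these member probes belong to 1 gene, Ccng1, and are not independent. The median log2 change of the 11 probes was 0.052, close to 0.024 for all expressed probes. With 95% intervals taken for each probe singly, no member outside Ccng1 had an interval that went beyond 0.37 upwards or 0.40 downwards on the log2 scale. A 2 fold change lies outside the interval of each of the 7 probes detected in all 8 arrays (of Bbc3, Mdm2, Ccng1 and Trp53inp1). Background that remains in a dim signal reduces a measured fold, however. The Bbc3 probe among them, ILMN_2920736, read 6.09 to 6.35, just above the lowest detected signals of the arrays (5.93 to 6.06). For this probe, and for the other 4 expressed probes, which were not detected in some arrays, the intervals set no such limit on the transcript.

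**Figure D1:**
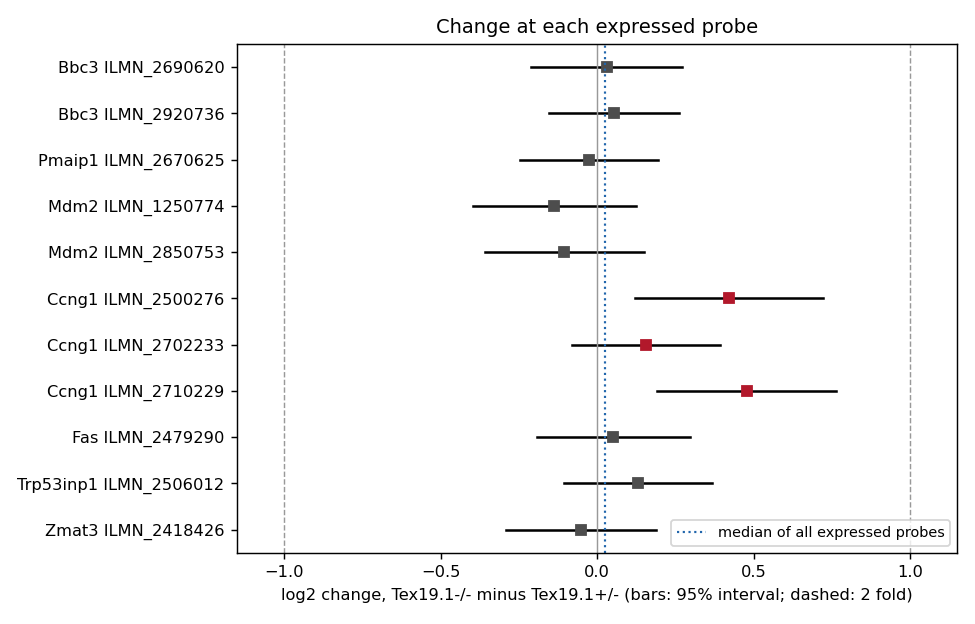
Log2 change of the signal (Tex19.1-/- minus Tex19.1+/-, x axis) at each of the 11 expressed member probes (rows), with 95% intervals from limma as bars, 2 fold as dashed lines and the median of all expressed probes as a dotted line. All plotted intervals lie within 2 fold of the signal. This sets no limit on the transcript at the 4 probes not detected in every array and at the dim Bbc3 probe ILMN_2920736. The intervals of 2 probes of Ccng1, with changes of 0.48 and 0.42, lie above 0.

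Mdm2 is the gene of the set that closes the feedback loop on p53, and 2 of its 3 probes were detected in all 8 arrays. At ILMN_1250774 the log2 signal was 10.55, 10.28, 10.58 and 10.23 in Tex19.1-/- animals 1 to 4, against 10.51, 10.36, 10.55 and 10.77 in controls 1 to 4. The genotypes overlapped, with Tex19.1-/- animals 2 and 4 lowest and control 4 highest. The log2 change was -0.14 (limma, adjusted p = 0.67, standard error 0.12, 95% interval -0.40 to 0.12). At ILMN_2850753 the values were 10.16, 10.18, 10.27 and 10.07 in Tex19.1-/- animals, against 10.08, 10.58, 10.16 and 10.28 in controls. Here a single control, animal 2, was above all others, and the log2 change was -0.11 (limma, adjusted p = 0.75, standard error 0.12). Without that control it was -0.0029, and at ILMN_1250774 it was -0.064 without control 4 and -0.077 without Tex19.1-/- animal 4. Both values are above 0 when quantile normalization is replaced by scaling of the arrays to a common median (0.21 and 0.24, where the median of all expressed probes is 0.14). That setting is noisier, with standard errors of 0.30 and 0.25, and called 1 of all expressed probes, against 338 as reported. The interval as reported also includes 0 at both probes (-0.36 to 0.15 at ILMN_2850753), so no direction can be given for Mdm2. The third probe of Mdm2, ILMN_1229882, was not detected in any array, although the other 2 were well above the detection limit. Lack of detection at a probe therefore does not show that its gene is silent.

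Ccng1 encodes cyclin G1, a p53 target that takes part in the control of Mdm2, and its 3 probes were detected in all 8 arrays. At ILMN_2710229 the log2 signal was 9.18, 9.18, 9.36 and 9.30 in Tex19.1-/- animals 1 to 4, against 8.36, 8.88, 8.96 and 8.91 in controls 1 to 4. Every Tex19.1-/- animal was above every control, an arrangement found at 4.18% of all expressed probes, and control 1 was well below the other controls. The mean was 9.25 ± 0.088 in Tex19.1-/- testes and 8.78 ± 0.28 in controls (SD, n = 4 each), a log2 change of 0.48, or 1.39 fold (95% interval 1.14 to 1.70), which did not pass the test (limma, adjusted p = 0.077, standard error 0.13). Without control 1 the log2 change was 0.34 (limma, adjusted p = 0.15), and a fit that blocks on the replicate number gave an adjusted p of 0.021, both short of the threshold.

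At ILMN_2500276 the log2 signal of Ccng1 was 7.90, 7.45, 7.31 and 7.67 in Tex19.1-/- animals, against 7.34, 7.17, 7.24 and 6.90 in controls. Tex19.1-/- animal 3 lay within the range of the controls and the other 3 lay above it, with a log2 change of 0.42 (limma, adjusted p = 0.15, standard error 0.14). At ILMN_2702233 the values were 7.10, 7.29, 7.49 and 7.21 in Tex19.1-/- animals and 7.03, 7.11, 7.28 and 7.05 in controls. The ranges overlapped more at this probe, and the log2 change was 0.16 (limma, adjusted p = 0.58, standard error 0.11, 95% interval -0.080 to 0.39). When animals with the same number are set against each other, the Tex19.1-/- animal had the higher value in 4 of 4 pairs at each of the 3 probes, by 0.30 to 0.82, 0.072 to 0.78 and 0.073 to 0.21 in the order given here. At ILMN_2710229 any pairing gives this count, because the genotypes do not overlap. At ILMN_2702233 the count depends on the numbering, since Tex19.1-/- animal 4 (7.21) was below control 3 (7.28). The 3 probes share the same 8 RNA samples and are not independent. Ccng1 lies on chromosome 11, as Tex19.1 does, and a part of linkage in these values was not tested. Beside these values stand the marker lists, which were chosen with earlier results of these data known. The 10 expressed spermatogonial genes all had a log2 change above 0, with a summed linear signal of 4595 to 5210 in Tex19.1-/- testes and 3969 to 4278 in controls, and the 12 pachytene genes all had one below 0. The summed signal of the Sertoli genes was 18509 to 21491 in Tex19.1-/- testes and 17665 to 19540 in controls. The part of cell composition in the Ccng1 values was not tested.

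**Figure D2:**
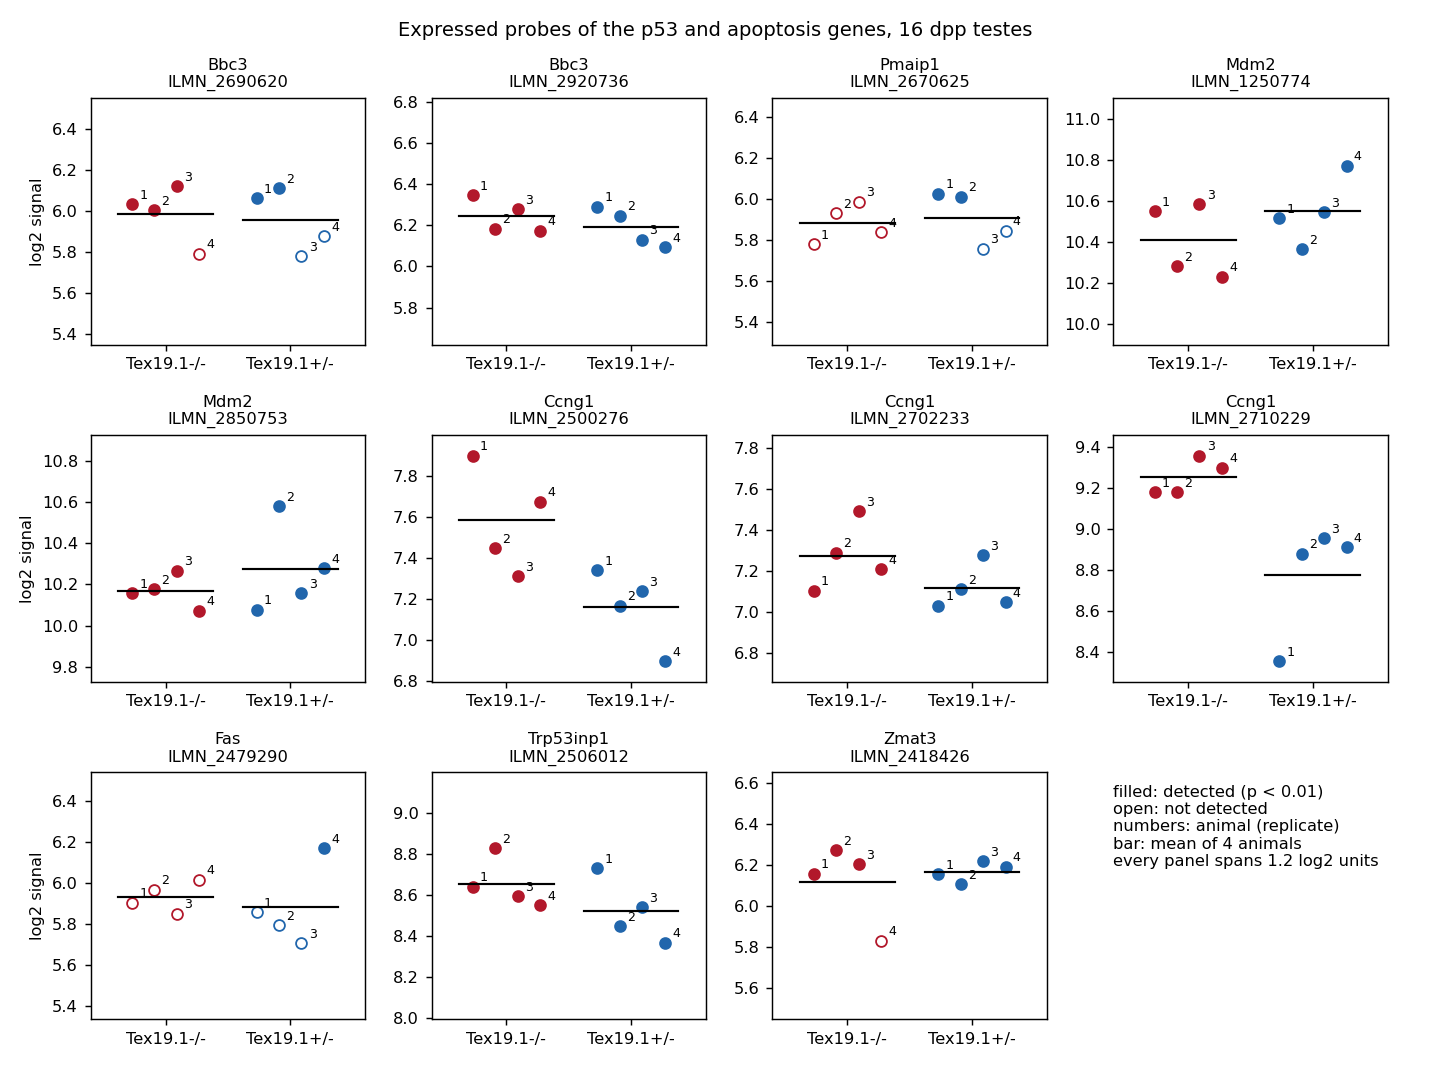
Normalized log2 signal (y axis, each panel spanning 1.2 log2 units) of the 11 expressed member probes in 4 Tex19.1-/- animals (left, red) and 4 Tex19.1+/- animals (right, blue), with the animal's number beside each point, filled points for detected signals and bars for the mean. Only Ccng1 at ILMN_2710229 has all Tex19.1-/- animals above all controls.

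**Figure D3:**
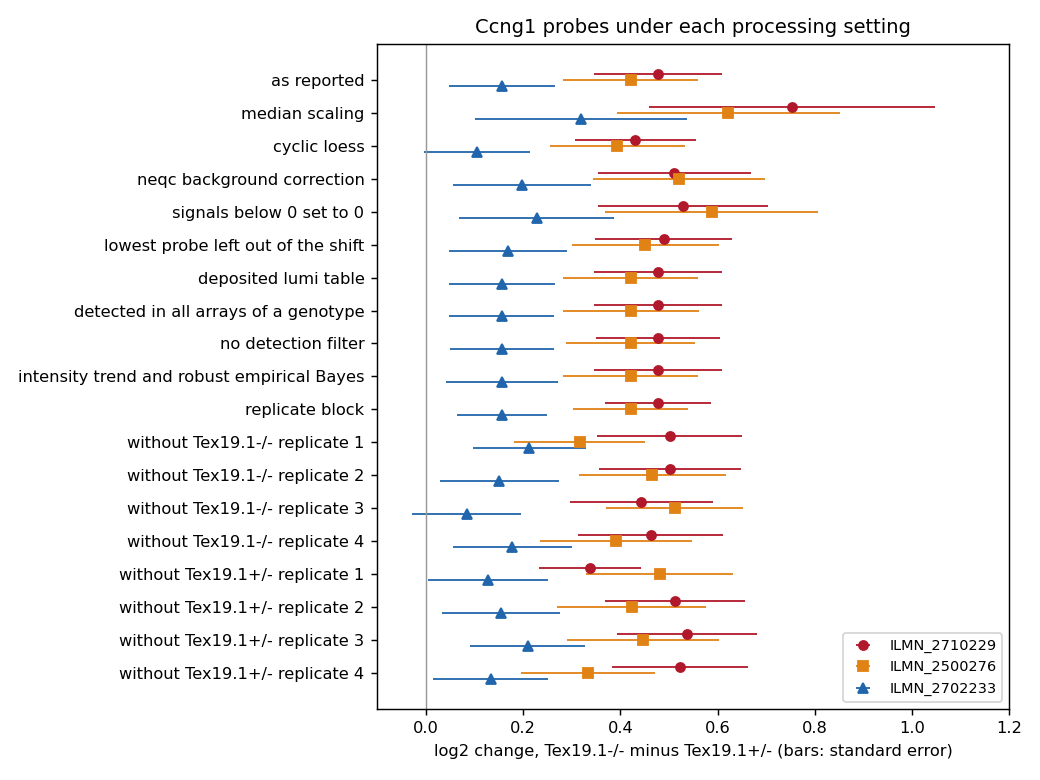
Log2 change (Tex19.1-/- minus Tex19.1+/-, x axis) of the 3 Ccng1 probes as reported and under each of 18 other settings (rows), with standard errors as bars. Every value is above 0, from 0.34 to 0.75 at ILMN_2710229, from 0.32 to 0.62 at ILMN_2500276 and from 0.084 to 0.32 at ILMN_2702233, and 0 of them passed the threshold.

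Of the BH3-only genes that link p53 to mitochondrial apoptosis, Bbc3 was detected and Pmaip1 was at the limit of detection. Bbc3 at ILMN_2920736 was detected in all 8 arrays, with a log2 signal of 6.35, 6.18, 6.28 and 6.17 in Tex19.1-/- animals, against 6.29, 6.25, 6.13 and 6.09 in controls. The animals of both genotypes were interleaved, and the log2 change was 0.055 (limma, adjusted p = 0.86, standard error 0.096, 95% interval -0.15 to 0.26). The probe ILMN_2690620 of Bbc3 was detected in 3 of 4 Tex19.1-/- animals and 2 of 4 controls, with log2 signals of 5.79 to 6.12 in Tex19.1-/- animals and 5.78 to 6.11 in controls. Its genotypes overlapped over nearly their whole range, and both means lay near the detection limit, so no fold is given (limma, adjusted p = 0.94). A further Bbc3 probe was not detected. Pmaip1 was detected at ILMN_2670625 in 0 of 4 Tex19.1-/- animals and in controls 1 and 2, with log2 signals of 5.78, 5.93, 5.99 and 5.84 in Tex19.1-/- animals and 6.02, 6.01, 5.76 and 5.84 in controls. The 2 detected controls were just above every Tex19.1-/- animal, and control 3 was just below all of them. The log2 change was -0.026 (limma, adjusted p = 0.95, standard error 0.10), and no fold is given because the control mean was not above the lowest detected signals. The other 2 probes of Pmaip1 were not detected in any array.

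Trp53inp1 encodes a nuclear protein induced by p53 that promotes cell death, and Zmat3 encodes a zinc-finger protein that binds RNA. Trp53inp1 at ILMN_2506012 was detected in all 8 arrays, with a log2 signal of 8.64, 8.83, 8.60 and 8.55 in Tex19.1-/- animals, against 8.73, 8.45, 8.54 and 8.37 in controls. Tex19.1-/- animal 2 was highest and control 4 lowest, with the rest overlapping, and the log2 change was 0.13 (limma, adjusted p = 0.66, standard error 0.11, 95% interval -0.11 to 0.37). Its other probe was not detected. Zmat3 at ILMN_2418426 was detected in 3 of 4 Tex19.1-/- animals and 4 of 4 controls, with log2 signals of 6.16, 6.27, 6.20 and 5.83 in Tex19.1-/- animals and 6.16, 6.11, 6.22 and 6.19 in controls. Only Tex19.1-/- animal 4, in which the probe was not detected, stood apart. The log2 change was -0.052 (limma, adjusted p = 0.88, standard error 0.11), and without that animal it was 0.043.

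The probes of members that act at the cell surface or in the membrane were near or below the detection limit in both genotypes. Of the 4 probes of Fas, ILMN_2479290 was detected in control 4 alone, with a log2 signal of 6.17 there, 5.71 to 5.86 in the other controls and 5.85 to 6.02 in Tex19.1-/- animals. The genotypes overlapped, with the detected control above every Tex19.1-/- animal, and the log2 change was 0.052 (limma, adjusted p = 0.89, standard error 0.11). The other 3 probes of Fas were not detected. Perp, a p53 target whose product is a component of desmosomes, has 1 probe, and it was not detected in any array, with background-subtracted signals of 6.21, 0.507, 6.00 and 6.96 in Tex19.1-/- animals and -4.36, 5.04, 3.00 and 1.68 in controls. Over the 9 member probes that were not expressed, signals ranged from -6.64 to 16.4 in Tex19.1-/- animals and from -8.10 to 18.3 in controls, with a lowest detection p-value of 0.011, just outside the limit of 0.01. For these probes a change was not detectable at this signal.

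Further genes of the pathway were examined in 5 lists that cover p53 relatives and regulators, other p53 target genes, the BCL2 family, the death receptor pathway, and caspases with the apoptosome. Together the lists name 106 genes, of which 82 were expressed when each gene is represented by its probe with the highest mean signal, and 0 of these 82 were called, against 2.09% of all 10904 expressed genes (1.98% lower). At an unadjusted p under 0.05, 8 of the 82 (9.76%) were higher and 4 (4.88%) were lower, against 6.76% and 8.71% of all expressed genes. The same shares of all expressed genes stand beside the counts of each list below. A log2 change above 0 was found for 60 of the 82 (73.2%) and for 57.3% of all expressed genes, and the median was 0.086, against 0.030 for all expressed genes. The lists were chosen with earlier results of these data known, and their genes share the same 8 animals, so these shares are no test. Of the marker lists, 10 of 10 spermatogonial, 6 of 9 Sertoli, 4 of 5 Leydig and 4 of 5 macrophage genes were also above 0. Of the early prophase genes 1 of 8 was, and of the pachytene genes 0 of 12. Genes not detected in any array included Trp73, Bak1, Fasl and Xiap.

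**Figure D4:**
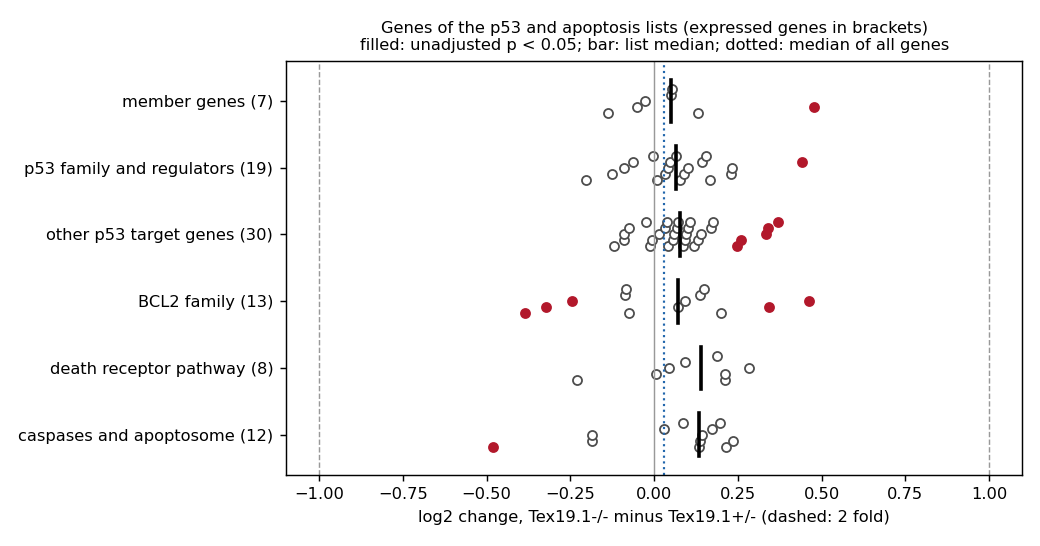
Log2 change (Tex19.1-/- minus Tex19.1+/-, x axis) of each expressed gene in the member set and in the 5 lists (rows, with the number of genes in brackets), filled for an unadjusted p under 0.05, with the list median as a bar and the median of all expressed genes as a dotted line. Every gene lies between -0.48 and 0.48, and the list medians lie between 0.052 and 0.14.

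Among 30 other p53 target genes, 0 were called, 5 were higher and 0 were lower at an unadjusted p under 0.05, and the median log2 change was 0.078. Rrm2b, a ribonucleotide reductase subunit for DNA repair, had log2 signals of 6.48, 6.89, 6.54 and 6.75 in Tex19.1-/- animals and 6.45, 6.35, 6.36 and 6.16 in controls, without overlap, and a log2 change of 0.33 (limma, adjusted p = 0.18, standard error 0.12). Ephx1, an epoxide hydrolase, had a log2 change of 0.34 (limma, adjusted p = 0.26), with ranges that met at 8.86 and did not overlap. Every Tex19.1-/- animal was above every control at 4.18% of all expressed probes. Sesn1, a sestrin of the stress response, had a log2 change of 0.25 (limma, adjusted p = 0.30), while its other probes had 0.034 and 0.035. The first of these 2 was detected in 3 of 4 animals of each genotype and the second in all 8 arrays. Cdkn1a, the p21 inhibitor of cyclin-dependent kinases and the best known target in cell cycle arrest, had log2 signals of 7.17, 7.18, 7.64 and 7.54 in Tex19.1-/- animals, against 6.79, 6.69, 7.20 and 7.37 in controls. The ranges overlapped, and the log2 change was 0.37 (limma, adjusted p = 0.32, standard error 0.16). In each pair of animals with the same number the Tex19.1-/- animal was higher. With the number as a block the adjusted p was 0.0498 (limma), above the threshold of 0.01. The other Cdkn1a probes had log2 changes of 0.061 and 0.17. They were detected in 3 of 4 and 1 of 4 Tex19.1-/- animals and in 2 of 4 and 0 of 4 controls. Both were thus near the detection limit, where folds are understated.

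Among 19 expressed relatives and regulators of p53, 0 were called, and 1 was higher and 0 were lower at an unadjusted p under 0.05, with a median log2 change of 0.065. That gene was Atm, the kinase that signals DNA breaks to p53, with a log2 change of 0.44 at ILMN_2492491 (limma, adjusted p = 0.14, standard error 0.14). In each pair of animals with the same number the Tex19.1-/- animal was higher. With the number as a block the adjusted p was 0.037 (limma), still above the threshold. Other probes of Atm disagreed, with 0.0091 at ILMN_1258206, which was detected in all 8 arrays, and -0.043 at ILMN_2783896. The last was detected in 2 of 4 Tex19.1-/- animals and 3 of 4 controls. Hipk2, a kinase that phosphorylates p53, and Ep300, a histone acetyltransferase that also acetylates p53, had log2 changes of 0.23 each (limma, adjusted p = 0.43 and 0.45), while further probes of both genes were below 0.

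Among 13 expressed genes of the BCL2 family, 0 were called, and 2 were higher and 3 lower at an unadjusted p under 0.05. Bad, a BH3-only protein that promotes apoptosis, had log2 signals of 7.39, 7.36, 7.51 and 7.42 in Tex19.1-/- animals and 7.83, 7.68, 7.67 and 7.80 in controls. Every Tex19.1-/- animal was below every control, which holds in this direction for 6.06% of all expressed probes, and the log2 change was -0.32 (limma, adjusted p = 0.093, standard error 0.093). Bik, a further BH3-only protein, had a log2 change of 0.34 (limma, adjusted p = 0.15) and Bcl2l12, which is reported to restrain p53, one of -0.39 (limma, adjusted p = 0.17). With median scaling the log2 changes of Bad and Bcl2l12 were -0.11 and -0.18 (standard errors 0.19 and 0.21), against a median of 0.14 for all expressed probes. Without control 4 that of Bcl2l12 was -0.25. Bcl2l11, which encodes the BH3-only protein BIM, had log2 signals of 8.34, 8.34, 8.88 and 8.87 in Tex19.1-/- animals and 7.91, 7.92, 8.32 and 8.43 in controls, and a log2 change of 0.46 (limma, adjusted p = 0.20, standard error 0.16). In each pair of animals with the same number the Tex19.1-/- animal was higher, and with the number as a block the adjusted p was 0.0104, still above the threshold, whereas its other probe had a log2 change of 0.22.

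In the death receptor pathway, 0 of 8 expressed genes were called and 0 had an unadjusted p under 0.05. The smallest p belonged to Faf1, a factor that binds FAS, with a log2 change of -0.23 (limma, adjusted p = 0.37) and 0.047 at its other probe. With median scaling, where the median of all expressed probes is 0.14, the log2 change was 0.13 (standard error 0.27) at the first of these probes. Cflar, the inhibitor of caspase 8, and Casp8 itself had log2 changes of 0.21 and 0.19 (limma, adjusted p = 0.44 and 0.49). Among 12 expressed genes of the caspase and apoptosome list, 0 were called, and 0 were higher and 1 was lower at an unadjusted p under 0.05. That gene was Diablo, whose product leaves mitochondria to relieve the inhibition of caspases, with log2 signals of 11.53, 11.22, 11.68 and 11.60 in Tex19.1-/- animals and 11.58, 12.07, 11.99 and 12.31 in controls. Control 1 fell within the range of the Tex19.1-/- animals, and the log2 change was -0.48 (limma, adjusted p = 0.13, standard error 0.15). Without that control it was -0.62 (limma, adjusted p = 0.030). With median scaling it was -0.078 (limma, adjusted p = 0.94, standard error 0.33), against the median of 0.14 for all expressed probes in that setting. Casp2, an initiator caspase, and Casp6, an effector caspase, had log2 changes of 0.22 and 0.24 (limma, adjusted p = 0.36 and 0.39).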

How the data were processed

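Total RNA of 8 testes (4 Tex19.1-/- and 4 Tex19.1+/-) was hybridized to 1 Beadchip array each. The deposited intensity values are linear signals that the authors background-subtracted in BeadStudio, of a version not stated, and did not scale between arrays. The deposited detection p-value of each probe and array comes from the same program. The authors also deposited log2 values, quantile-normalized in lumi, which differ from the values recomputed here by at most 0.0144 and served as an alternative. Signals were shifted to a minimum of 1 on each array, taken to log2 and quantile-normalized. Every probe with a detection p-value under 0.01 in at least 1 array was fitted in limma 3.58.1 (R 4.3.3, lmFit and eBayes, 2-sided, 6 residual degrees of freedom). Benjamini-Hochberg adjustment covered all 19089 expressed probes, and a probe was called at an adjusted p of at most 0.01. The fit was tested on simulated data. The shift leaves some background in every signal, so folds of dim probes are understated, and the number of arrays limits the precision.

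Of the expressed probes 16257 have 1 gene symbol in the platform annotation, 7 have several and 2825 have none. Named here are all member probes and, from each list, the 3 genes with the smallest p, besides any gene called. Cdkn1a and Bcl2l11 were added after their values were seen. A comparison with the pattern of Trp53 was planned and could not be made without a probe for it. The members and gene lists were chosen with earlier results of these data known. The deviations of animals with the same replicate number from their genotype means had correlations of 0.21, 0.52, 0.10 and 0.23, all above the limit of 0.1, and the numbers were therefore taken to pair the animals. The labels do not say what a number marks, and Tex19.1-/- animals 3 and 4 correlated at least as well with controls 4 and 3 (0.45 and 0.23), so values that rest on the pairs depend on this rule. Alternatives changed the normalization, background handling, detection filter and variance model, added the replicate number as a block, or left out 1 animal at a time.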

Additional observations from a re-analysis of the deposited data

Results flagged for a closer look

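In 76 groups of 4 values (each genotype at each of the 20 member probes, at the Tex19.1 probe and at 1 probe of each further gene named), 3 had 1 animal far from the other 3 by Dixon's test, where chance gives about 1 in 20. At the Ccng1 probe ILMN_2710229, control 1 had a log2 signal of 8.36, against 8.88 to 8.96 in the other controls. At the Mdm2 probe ILMN_1229882, Tex19.1-/- animal 4 had 5.67, against 5.43 to 5.45 in the other Tex19.1-/- animals, and at the Trp53inp1 probe ILMN_2971479, control 3 had 5.29, against 5.76 to 5.81 in the other controls. The last 2 probes were not detected in any array.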

How the results depend on the processing

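Under 18 alternatives 0 member probes and 0 genes of the 5 lists were called, also when all expressed probes of a listed gene were averaged. The lowest adjusted p was 0.021 at Ccng1 and 0.0104 at Bcl2l11, both with the replicate block, which changed no call of a named gene. Calls among all expressed probes numbered 338 as reported (27 higher, 311 lower), 1 with median scaling, 21 with signals below 0 set to 0, 518 with the replicate block (48 higher, 470 lower), and 169 to 351 when 1 animal was left out. They were 169, 194 and 203 without Tex19.1-/- animals 4, 1 and 2, and 225 without control 3. Causes were not tested. Median scaling moved the median of all expressed probes to 0.14, against 0.024 as reported. Of 195 log2 changes of member probes under alternatives, 183 kept their sign and 12 did not. With median scaling the values were 0.21 and 0.24 at the Mdm2 probes ILMN_1250774 and ILMN_2850753, 0.038 at Pmaip1, 0.012 at Zmat3 and 0.13 at Faf1. Pmaip1 was at 0.0071 with cyclic loess, and at 0.012, 0.0074 and 0.0081 without controls 1 and 2 and Tex19.1-/- animal 1. Bbc3 at ILMN_2690620 was at -0.014 without Tex19.1-/- animal 3 and at -0.029 without control 3, Fas at -0.0067 without control 3, and Zmat3 at 0.043 without Tex19.1-/- animal 4. With 1 animal left out the values ran from -0.029 to 0.094 at this Bbc3 probe, -0.077 to 0.012 at Pmaip1, -0.0067 to 0.15 at Fas and -0.10 to 0.043 at Zmat3. Signals at Pmaip1, Fas, Perp and this Bbc3 probe were too close to background for a change to be measured.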
